A study of Mus musculus with 4 samples.

Results

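The ADAM metalloprotease family was followed in RNA of mouse testis. Members were the rows of the deposited table whose symbol was Adam, a number and at most 1 further letter, which leaves out the Adamts genes. This rule took 33 of 24420 symbols, and no expression value entered it. The study set testis of FVB mice labelled lrrc8a MUT beside testis of FVB mice labelled WT, with 2 RNA-seq libraries per genotype (MUT 1 and MUT 2, WT 1 and WT 2). Lrrc8a codes for an essential part of the swelling-activated anion channel of cells, and the series concerns deficient activity of that channel in male infertility. The labels name testis as the source and germ cells as the cell type, with no cell separation step. The sources used here do not describe the MUT allele or say which cells carry it. They also give neither the animals' ages nor whether replicate libraries stand for separate animals. The p-values below therefore set the difference between genotypes only against the spread of replicate libraries, which may be a technical spread.

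ADAM proteins are membrane proteins built from a prodomain, a metalloprotease domain, a disintegrin domain, a cysteine-rich part, a transmembrane segment and a short tail. In somatic cells the catalytic members act as sheddases, which cut the outer part of growth factors, cytokines, receptors and adhesion proteins from the cell surface. In the testis most members are made in germ cells, and several form complexes on the sperm surface that sperm need to pass from the uterus into the oviduct and to bind the zona pellucida. A metalloprotease domain can cut only with its zinc site, in which 3 histidines hold the metal and a glutamate activates water. Several ADAMs have lost this site and act through binding alone.

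The zinc site divides the family, so its coding sequence is shown here for members on both sides. Each stretch has 33 nucleotides, or 11 codons, from GENCODE vM21 transcripts on GRCm38, printed 5′ to 3′ on the coding strand. Capitals mark the codons at the 5 fixed positions of the site, which hold the 3 histidines, the glutamate and a glycine in an active member.
Adam10: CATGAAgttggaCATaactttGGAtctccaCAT
Adam17: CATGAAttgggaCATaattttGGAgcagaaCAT
Adam9: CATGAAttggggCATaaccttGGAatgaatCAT
Adam24: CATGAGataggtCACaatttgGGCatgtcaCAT
Adam1b: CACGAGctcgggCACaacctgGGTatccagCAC
Adam29: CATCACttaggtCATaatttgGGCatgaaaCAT
Adam4: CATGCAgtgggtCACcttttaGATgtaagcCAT
Adam2: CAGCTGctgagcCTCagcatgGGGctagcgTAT
Adam3: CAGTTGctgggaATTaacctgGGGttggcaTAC
Adam5: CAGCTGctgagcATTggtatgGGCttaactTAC
Adam32: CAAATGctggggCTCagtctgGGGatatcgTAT

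These stretches lie in coding exons at chr9:70754296-70761585 on the plus strand for Adam10, where an intron splits the site, and at chr12:21336732-21336764 (minus) for Adam17. The sites of Adam9 at chr8:24990326-24990358 (minus), Adam24 at chr8:40680518-40680550 (plus) and Adam1b at chr5:121501937-121501969 (minus) each lie within 1 exon. The aligned stretches of the others are at chr8:55872374-55872406 for Adam29, chr12:81420763-81420795 for Adam4, chr14:66053841-66053873 for Adam2, chr8:24707418-24707450 for Adam3, chr8:24806449-24806481 for Adam5 and chr8:24901501-24901533 for Adam32, all on the minus strand. Of the 33 members, 20 hold all 5 fixed codons. Members without the full site were aligned to the most similar member that has it. Adam2, Adam3, Adam5, Adam18 and Adam32 keep 1 of the 5 fixed positions and none of the 3 histidines. Adam29 and Adam7 keep 4 positions with all 3 histidines and lack the glutamate, and Adam4 keeps 3 positions, again with all 3 histidines and without the glutamate. The stretch of Adam1a is the same as that of Adam1b.

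The libraries held 40426400 to 68192776 reads assigned to genes. Values are CPM, the reads of a gene scaled to a common library size, and 30 of the 33 members reached 1 CPM in at least 2 libraries and were tested. All 30 passed this filter in both genotypes: the lowest value among them was 2.37 CPM, for Adam19 in MUT 2. Adam7, Adam28 and Adam33 stayed under it in all 4 libraries. Lrrc8a was read at 13.49 and 15.86 CPM in MUT 1 and MUT 2 and at 18.21 and 17.15 CPM in WT 1 and WT 2 (limma adjusted p = 0.218), so its RNA level alone gives no called difference between the genotypes. Markers of Leydig cells summed to 1057 and 1096 CPM in MUT, against 915.3 and 896.4 CPM in WT. Cyp17a1 made up most of that sum (533.0 to 680.2 CPM). The log2 fold change, MUT minus WT, was above 0 for 5 of the 6 Leydig markers and below 0 for Insl3 (-0.28). Those of Sertoli cells summed to 152.5 and 147.3 CPM in MUT, against 135.9 and 139.2 CPM in WT. Of these 6 markers, 4 were above 0 and 2 below. Markers of peritubular myoid cells summed to 94.98 and 104.3 against 117.3 and 110.2 CPM, and those of elongating spermatids to 14010 and 13280 against 15000 and 13680 CPM. The 10 markers of the epididymis summed to 16.24 and 17.22 CPM in MUT, against 15.66 and 13.63 CPM in WT. Most of that sum was Wfdc10 (7.600 to 9.993 CPM), Rnase10 (3.559 to 4.984) and Defb21 (1.515 to 2.180), while Crisp1 ranged from 0.04021 to 0.4154 CPM, Lcn5 from 0 to 0.02443 CPM and Spint4 was at 0 in all libraries.

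By CPM, the family was mostly RNA of genes listed for sperm and the male tract. The lists go by gene name, so this share does not show which cells made the RNA. The 21 members of the sperm and male tract lists summed to 4442 (MUT 1), 4484 (MUT 2), 4582 (WT 1) and 4708 CPM (WT 2), which was 96.6% to 96.7% of all ADAM reads. The 12 somatic and neural members summed to 153.5, 157.8, 158.1 and 160.6 CPM in the same order. Neither sum stood far apart between the genotypes, although both WT libraries were above both MUT libraries in each.

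Per length of exon, Adam3 (cyritestin, a sperm surface protein that mice need for sperm to enter the oviduct) was the most abundant member. It was read at 1148 and 1253 CPM in the MUT and at 1231 and 1243 CPM in the WT libraries, a mean of 414 CPM per kilobase of merged exons (range 390 to 426). Its groups overlapped, since MUT 2 was the highest library and MUT 1 the lowest. Adam5, its neighbour, had 1255 and 1200 CPM in MUT and 1281 and 1329 CPM in WT, or 404 CPM per kilobase (383 to 424). The ranges of the 2 genes per kilobase overlapped, so their order is not settled by these libraries. Adam32 followed at 196 CPM per kilobase (183 to 208), and Adam2 (fertilin beta, the partner of the ADAM1 proteins) at 151 (149 to 155). These 4 genes carried 73.3%, 73.2%, 74.5% and 74.2% of the family's CPM (MUT 1, MUT 2, WT 1, WT 2), and all 4 lack the zinc site shown above.

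A second tier of sperm members lay between 6.31 and 51.2 CPM per kilobase. Adam18 led it at 51.2 (48.9 to 55.3), followed by Adam24 at 42.2, Adam1b at 34.1 (31.3 to 36.2) and Adam6a at 30.7 (28.5 to 33.1), the ranges of Adam1b and Adam6a overlapping. Adam1a, which forms a heterodimer with ADAM2 in the endoplasmic reticulum of germ cells, had 23.7 CPM per kilobase by merged exons. That value depends on its annotation: the merged exons of Adam1a span 7508 nucleotides, against 4783 in its longest transcript, and its rank in the family moves from 9 to 7 when the longest transcript is used. Below it came Adam4 and Adam39 at 21.1 each, Adam6b at 20.2, Adam20 at 18.8, Adam25 at 17.6, Adam26a at 17.5, Adam29 at 15.6, Adam30 at 15.2 and Adam21 at 12.1. Adam26b (6.61) and Adam34 (6.31) closed the tier.

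By their means per kilobase of merged exons, the somatic and neural members all sat below these. Adam11, a neural member that binds LGI proteins, was the highest of them at 5.61 CPM per kilobase (4.61 to 6.31), so that its highest library reached the mean of Adam34. Its range overlapped those of Adam15 at 5.44 (4.60 to 6.37) and Adam10 at 5.28 (4.42 to 6.23). Adam9 had 3.88 (3.26 to 4.48) and Adam17 2.86 (2.57 to 3.27) CPM per kilobase. Adam8, Adam22, Adam19, Adam12 and Adam23 lay between 0.329 and 0.932. The separation from the sperm members depends on the length used. By the longest transcript, Adam15 had 8.54 CPM per kilobase, above Adam26b at 6.61 and Adam34 at 6.31. In other tissues the sheddases ADAM10 and ADAM17 release Notch, tumour necrosis factor and the ligands of the epidermal growth factor receptor. Their RNA was read far below that of Adam3, Adam5, Adam32 and Adam2. By merged exons, the range of Adam10 overlapped those of Adam34 (5.79 to 6.79) and Adam26b (5.92 to 7.35). In bulk RNA, fewer cells of a type and less RNA per cell cannot be told apart, so these levels say nothing of the amount per cell.

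**Figure D1:**
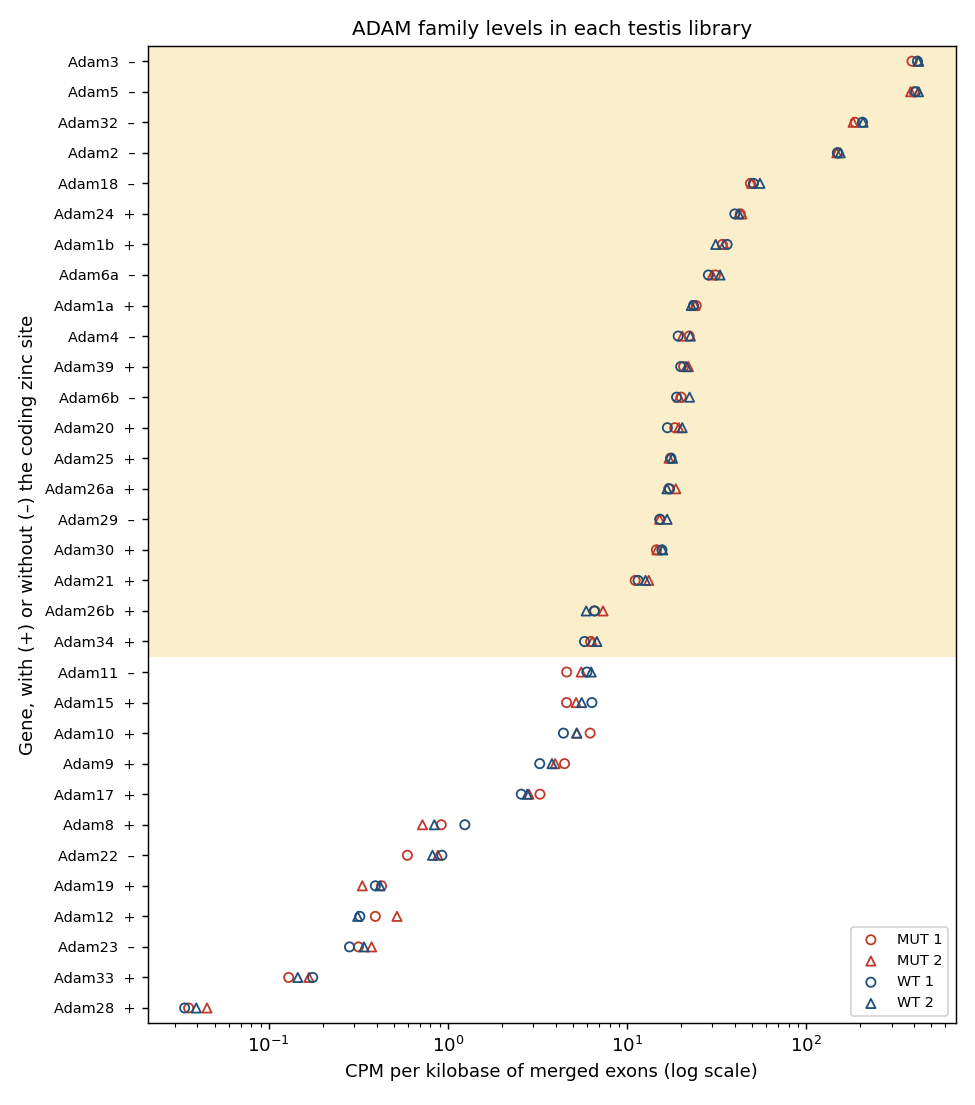
Level of each ADAM gene in each library, as CPM per kilobase of merged exons on a log axis, with 1 row per gene in order of the mean. Red marks MUT and blue WT, circles replicate 1 and triangles replicate 2, rows of sperm and male tract members are shaded, and + or − gives the presence of the zinc site. Adam3 and Adam5 lie near 400 at the top, every shaded row lies above every unshaded one by its mean, and the 4 libraries of most genes lie close together; Adam7, at 0 in 1 library, is left out.

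Level and gene structure were set beside the zinc site. The 11 sperm members with the zinc site had a median of 17.6 CPM per kilobase (6.31 to 42.2), and 9 of them consist of 1 or 2 exon blocks. The 10 sperm members without it, of which 4 consist of 1 or 2 exon blocks, had a median of 41.0 with a range from 0.00661 for Adam7 to 414 for Adam3, and they supplied 81.2% of the family's CPM against 15.5% from those with the site. The 9 somatic catalytic members, of 16 to 28 exon blocks, all hold the site and supplied 2.3%. Adam11, Adam22 and Adam23, with 26 to 35 blocks and no full site, supplied 1.05%. The somatic list was drawn as catalytic and the neural list as inactive, so their split by site was given in advance. All counts in this paragraph are over related genes, several of which are neighbours or near copies, and no test was made of them.

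The sperm members lie mostly in clusters. On chromosome 8, Adam18, Adam3, Adam5, Adam32 and Adam9 follow each other on the minus strand between positions 24602246 and 25016927, and this 1 stretch holds the 3 most abundant members beside Adam9, a somatic sheddase at 3.88 CPM per kilobase. Adam24, Adam25, Adam20 and Adam39 lie together on the plus strand between 40675077 and 40827037 (17.6 to 42.2 CPM per kilobase), and Adam26b, Adam26a and Adam34 on the minus strand between 43519762 and 43710049 (6.31 to 17.5). Adam6b and Adam6a are neighbours on chromosome 12 between 113489511 and 113546465, and Adam1b and Adam1a on chromosome 5 between 121500098 and 121545482. The first cluster spanned the widest range of these, from 3.88 to 414 CPM per kilobase.

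Near copies limit how well single members can be read. The translated coding sequences of Adam25 and Adam39 are 91.4% identical, those of Adam6a and Adam6b 89.8% and those of Adam26a and Adam26b 88.4%. About 28.2% of the 50-nucleotide windows of Adam25 transcripts also occur in Adam39, 29.5% of those of Adam6a in Adam6b and 28.6% of those of Adam26a in Adam26b. Adam20 shares 28.1% of its windows with Adam39, and Adam25 shares 25.7% of its own with Adam20. For Adam1a and Adam1b, 72.3% identical as proteins, 30.9% of windows are shared. Reads from these windows could be split between the copies or dropped, so the levels of these genes are uncertain. Adam1a also shares 4779 exonic nucleotides with Gm42878, a protein-coding gene on the same strand that has no row in the deposited table. It shares 1805 with Mapkapk5 on the same strand and 848 with Tmem116 on the opposite strand. Adam17 shares 311 with Iah1 on the opposite strand. Adam15 and Adam19 overlap annotated antisense genes, and the sources used here do not say whether the counting used strand.

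Most start regions of somatic and neural members were richer in G and C than those of sperm members. RefSeq start regions of 300 bases on GRCm38.p6 were at hand for 17 members. Those of Adam10 and Adam17 had 73.3% and 70.0% G and C with 32 and 30 CpG dinucleotides, and those of Adam23, Adam22 and Adam15 had 70.0%, 66.3% and 65.3%. Adam8 had 52.3% with 6 CpG, and the 3 regions listed for Adam19 had 49.3% to 60.3% with 5 to 11 CpG. The 10 sperm members with such a region ran from 35.3% for Adam29 to 51.0% for Adam1b, with 0 to 4 CpG each, so that only the lowest region of Adam19 fell within their range. The median over all start regions of the build was 52.7%. No value of this study bears on binding or methylation at these regions, so this is a description of sequence alone.

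Between the genotypes, no ADAM gene was called. The comparison was made with limma on log2(CPM + 0.5) over 15364 genes with Benjamini-Hochberg adjustment, and called genes with an adjusted p under 0.05. Of the 30 tested members, 0 were called higher and 0 lower, where 0.749% of all tested genes were called, 0.482% higher and 0.267% lower. edgeR and DESeq2 on the recovered reads also called 0 of 30, where they called 0.755% and 1.08% of all tested genes, genes without a DESeq2 adjusted p counted as not called. At an unadjusted limma p under 0.05, 6 of 30 members passed, where 14.7% of all genes did. Adam12, Adam10 and Adam9 were on the higher side (7.74% of all genes) and Adam11, Adam15 and Adam32 on the lower (6.98%). The same 6 passed in edgeR (14.8% of all genes) and in DESeq2 (10% of all genes). The members' share was 20.0%. Its difference from these background shares was not tested, and no member passed after adjustment.

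The members' changes were small and balanced. Log2 fold changes, MUT minus WT, were above 0 in 15 members and below 0 in 15, with a median of -0.002, the same as the median of all tested genes. Scaling to plain library totals moved both medians to 0.026. The median size was 0.084 among the members and 0.093 among all tested genes, and the values ran from -0.29 for Adam8 to 0.45 for Adam12. MUT and WT libraries did not overlap for 14 of 30 members, 7 with MUT above (23.0% of all genes) and 7 with MUT below (22.6%), where 45.6% of all tested genes did not overlap in either direction. The 20 tested sperm members had a median size of 0.05 and stayed between -0.16 and 0.16. The 10 tested somatic and neural members had a median size of 0.254 and ran from -0.29 to 0.45. The latter are read at lower levels, and their standard errors ran from 0.0893 for Adam15 to 0.161 for Adam8, overlapping those of the sperm members, from 0.0574 for Adam5 to 0.0985 for Adam34.

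**Figure D2:**
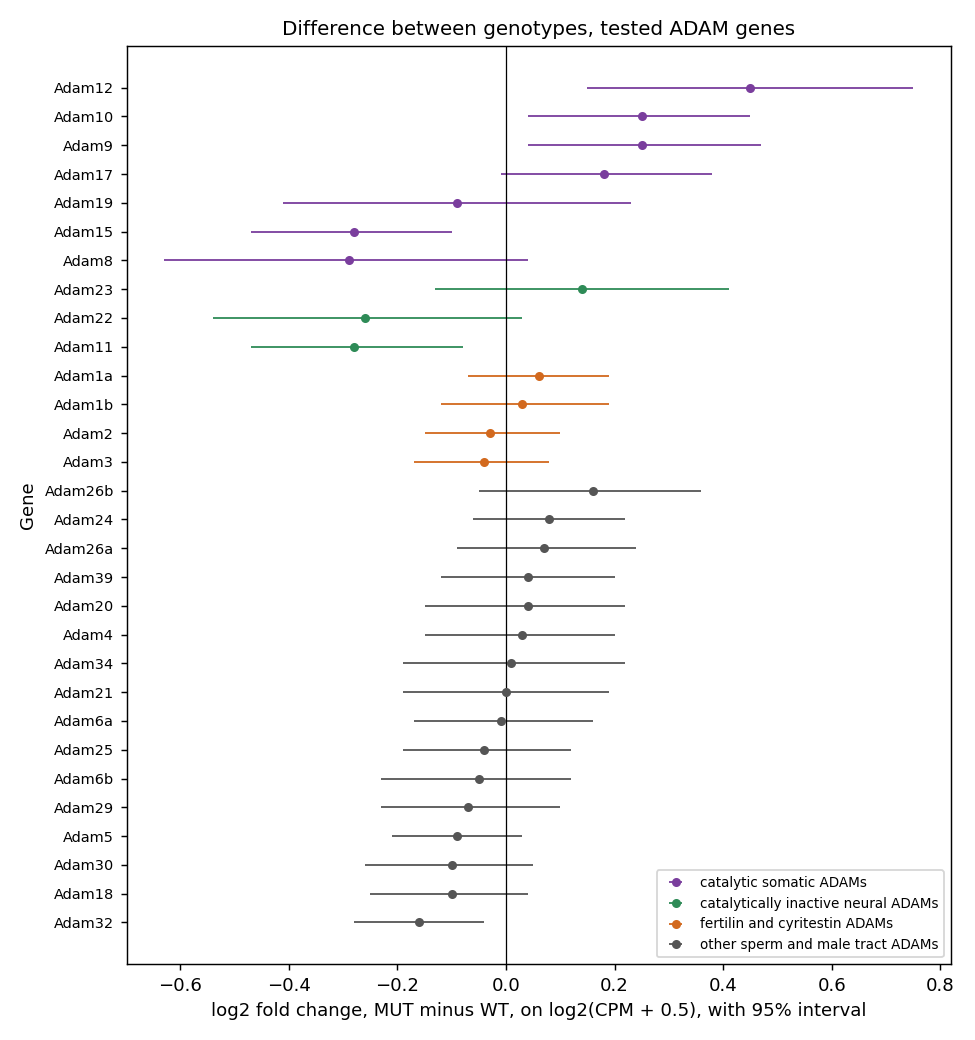
Log2 fold change of each tested member, MUT minus WT on the log2(CPM + 0.5) scale, grouped by role, with its 95% interval from limma for each gene taken alone. Sperm members lie within 0.16 of 0, while the somatic and neural members spread from -0.29 to 0.45 with wider intervals.

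Among the sperm complex members, Adam2 was read at 405.5 and 399.7 CPM in the MUT and at 402.4 and 417.6 CPM in the WT libraries. The groups overlapped, and the log2 fold change was -0.03 (SE 0.0594, limma adjusted p = 0.887). Adam3, whose library values are given above, had means of 1200 ± 74.4 CPM in MUT and 1237 ± 8.17 CPM in WT (SD, n = 2), a log2 difference of -0.04 (SE 0.0596, limma adjusted p = 0.780). The larger spread lay between the MUT libraries. Adam1a was at 182.8 and 180.1 CPM in MUT, against 176.6 and 171.7 CPM in WT, so that both MUT libraries were above both WT libraries, by 0.06 on the log2 scale (SE 0.0629, limma adjusted p = 0.706). Adam1b, fertilin alpha, was at 113.8 and 116.1 CPM in MUT, against 121.0 and 104.5 CPM in WT, where the 2 WT libraries enclosed both MUT libraries (0.03, SE 0.0741, limma adjusted p = 0.891).

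Adam32 had the smallest p of the sperm members. It was read at 562.0 and 547.8 CPM in MUT, against 617.9 and 623.0 CPM in WT, means of 554.9 and 620.5 CPM. Both MUT libraries were below both WT libraries, and the libraries of each genotype lay close together. The log2 fold change of -0.16 (95% interval for the gene alone -0.28 to -0.04) did not pass over all genes, with an adjusted p of 0.197 in limma, 0.192 in edgeR and 0.204 in DESeq2. Adam5 had 1227 ± 38.8 CPM in MUT and 1305 ± 33.8 CPM in WT, again without overlap (-0.09, SE 0.0574, limma adjusted p = 0.499). Adam18, in the same cluster, was at 115.5 and 117.4 CPM in MUT, against 120.0 and 130.5 CPM in WT (-0.10, SE 0.0680, limma adjusted p = 0.507), with both MUT libraries below. The sum of the elongating spermatid markers was lower in MUT 2 than in any other library, and highest in WT 1. The genotypes overlapped in it, with MUT 1 at 14010 and WT 2 at 13680 CPM, and Prm2 alone had 4524 to 5479 CPM. Round spermatid markers summed to 1260 and 1290 CPM in MUT, against 1354 and 1291 CPM in WT. Those of spermatocytes summed to 1117 and 1103 CPM in MUT, against 1059 and 1136 CPM in WT. The part of these cells in Adam32, Adam5 and Adam18 was not tested.

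Of the near copies, Adam6a was at 79.83 and 76.40 CPM in MUT, against 72.86 and 84.60 CPM in WT, and Adam6b at 51.11 and 49.74 CPM in MUT, against 48.21 and 56.96 CPM in WT. In each of these 2 genes WT 1 was the lowest library and WT 2 the highest, with both MUT libraries between them. Adam26a was at 42.56 and 46.64 CPM in MUT, against 43.03 and 41.64 CPM in WT, and Adam26b at 16.38 and 18.20 CPM in MUT, against 16.26 and 14.66 CPM in WT. Adam26b had the largest positive value among the sperm members, 0.16 (SE 0.0974, limma adjusted p = 0.476), with MUT 1 only just above WT 1. Adam30 was at 51.54 and 51.97 CPM in MUT, against 55.34 and 55.91 CPM in WT (-0.10), without overlap and with a gap larger than the difference within either genotype. Adam25 was at 45.90 and 44.98 CPM in MUT, against 46.16 and 47.09 CPM in WT (-0.04), with both MUT libraries just below. Its copy Adam39 was at 54.60 and 58.08 against 52.63 and 56.78 CPM (0.04), and Adam20 at 47.85 and 50.43 against 43.55 and 52.68 CPM (0.04), both with overlapping groups. The remaining sperm members, Adam4, Adam21, Adam24, Adam29 and Adam34, had values from -0.07 to 0.08.

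In the sperm members the WT libraries differed from each other more than the genotype means did, with a median size of 0.114 on the log2 scale against 0.05. These are unlike measures, since single libraries vary more than means of 2. Over all tested genes the sizes were 0.101 between the WT libraries and 0.093 between the genotype means. WT 2 was above WT 1 in 16 of the 20 tested sperm members, by a median of 0.064 on the log2 scale, where 50.5% of all tested genes were above and the median was 0.002. MUT 2 was above MUT 1 in 11 of the 20, by a median of 0.018, with a median size of 0.038, where that of all tested genes was 0.088. In the 13 members of 1 or 2 exon blocks, WT 2 was above WT 1 in 10, by a median of 0.109, and the median between the genotypes was 0.026. The labels give no batch that separates WT 1 from WT 2.

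Of the catalytic somatic members, Adam12 (meltrin alpha, known from muscle and connective tissue) had the largest value of the family. It was read at 4.162 and 5.497 CPM in the MUT libraries and at 3.411 and 3.317 CPM in the WT libraries, means of 4.83 ± 0.944 and 3.364 ± 0.0665 CPM (SD, n = 2). Both MUT libraries were higher than both WT libraries, which were nearly equal, while MUT 1 and MUT 2 stood apart. The log2 fold change was 0.45 (SE 0.142, 95% interval for the gene alone 0.15 to 0.75, limma adjusted p = 0.143). It passed only when MUT 1 was left out, at 0.634 with a limma adjusted p of 0.0338. Leaving out MUT 2 instead gave 0.271.

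Adam15 (metargidin, found on endothelial and epithelial cells) was at 28.27 and 31.96 CPM in MUT, against 39.16 and 34.34 CPM in WT. Both MUT libraries were lower, with MUT 2 and WT 2 the nearest to each other. Its log2 fold change was -0.28 (SE 0.0893, limma adjusted p = 0.145), or -0.22 once corrected for GC content and length. The endothelial marker sum, for comparison, was 19.07 and 20.96 CPM in MUT and 20.11 and 20.04 CPM in WT. Adam8, found on myeloid cells, was at 4.264 and 3.347 CPM in MUT, against 5.770 and 3.900 CPM in WT, with overlapping groups (-0.29, SE 0.161, limma adjusted p = 0.411). Leaving out 1 library moved its value to between -0.55 and -0.04. The macrophage marker sum was 42.07 and 46.45 CPM in MUT and 47.54 and 44.96 CPM in WT. Of its 5 genes, 3 had values above 0 and 2 below, with a median of 0.015. Cd74 alone was called, lower in MUT, at 4.551 and 4.691 against 7.935 and 6.514 CPM (-0.59, limma adjusted p = 0.0329). Over all tested genes, 0.267% were called lower. The part of endothelial cells and macrophages in Adam15 and Adam8 was not tested.

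The ubiquitous sheddases lay on the other side. Adam10 was at 30.61 and 25.80 CPM in MUT, against 21.70 and 25.73 CPM in WT, so that the genotypes only just failed to overlap: MUT 2 and WT 2 were almost equal (0.25, SE 0.1, limma adjusted p = 0.254). Adam9 was at 18.45 and 16.35 CPM in MUT, against 13.41 and 15.70 CPM in WT (0.25, SE 0.103, limma adjusted p = 0.255). Adam17 was at 23.39 and 20.30 CPM in MUT, against 18.39 and 19.86 CPM in WT (0.18, SE 0.0946, limma adjusted p = 0.373). Leaving out 1 library moved these values to between 0.124 and 0.366 for Adam10, 0.141 and 0.361 for Adam9 and 0.085 and 0.285 for Adam17. In all 3 genes the order of the libraries was the same, MUT 1 first, then MUT 2, WT 2 and WT 1. The marker sum of Sertoli cells had that same order, and that of Leydig cells was also higher in both MUT libraries. Their part in the sheddase values was not tested. Adam19 (meltrin beta) was at 3.034 and 2.370 CPM in MUT, against 2.803 and 2.976 CPM in WT, with overlapping groups.

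Among the neural members, Adam11 was at 26.12 and 31.49 CPM in MUT, against 33.88 and 35.79 CPM in WT, or 28.81 ± 3.8 and 34.83 ± 1.35 CPM (SD, n = 2). Both MUT libraries were below both WT libraries, and MUT 1 was the lowest by a wide margin. The log2 fold change was -0.28 (SE 0.0916, limma adjusted p = 0.167), and it ranged from -0.408 without MUT 2 (limma adjusted p = 0.0452) to -0.143 without MUT 1. Adam22 was at 8.529 and 12.63 CPM in MUT, against 13.29 and 11.78 CPM in WT. MUT 1 alone was low, and MUT 2 lay between the WT libraries (-0.26, SE 0.136, limma adjusted p = 0.391). Without MUT 2 its value was -0.527 (limma adjusted p = 0.0168), and without MUT 1 it was 0.013, so this value rests on MUT 1. Adam23 was at 5.679 and 6.719 CPM in MUT, against 5.058 and 6.092 CPM in WT, with overlapping groups (0.14).

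**Figure D3:**
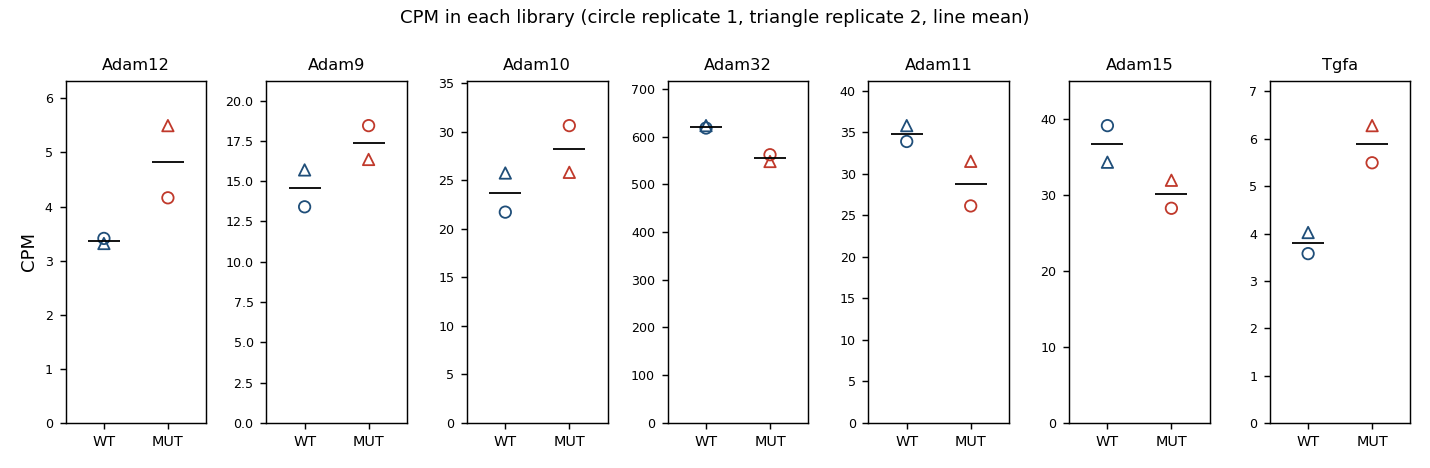
CPM in each library for the 6 members with the smallest p and for Tgfa, with MUT in red, WT in blue, circles for replicate 1 and triangles for replicate 2. MUT and WT do not overlap in any panel, while MUT 2 and WT 2 nearly meet for Adam10 (25.80 and 25.73 CPM). Picking genes by p favors panels without overlap, and 45.6% of all tested genes did not overlap.

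The members under the filter were close to the limit of detection or low in all libraries. Adam33 was at 0.6971 and 0.904 CPM in MUT, against 0.9493 and 0.7841 CPM in WT, and Adam28, known from lymphocytes and epididymis, at 0.328 and 0.4154 CPM in MUT, against 0.3115 and 0.3619 CPM in WT. Adam7, a member of the epididymis that is transferred to sperm there, was at 0 and 0.02443 CPM in MUT, against 0.02966 and 0.06032 CPM in WT. Its highest library held 3 reads, at a floor of 3 reads that corresponds to 0.0445 to 0.0733 CPM, so no fold is given. Adam7 and Adam28 are neighbours on chromosome 14 between 68497336 and 68655842.

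By zinc site, the signs of the members' values were counted. Of the 18 tested members with the site, 13 had values above 0 and 5 below, with a median of 0.039, and of the 12 without it 2 had values above 0 and 10 below, with a median of -0.061. The median of all tested genes was -0.002. These counts depended on the settings: with quantile normalization they were 11 and 7 with the site and 5 and 7 without it, without WT 1 9 and 9 against 1 and 11, and without WT 2 12 and 6 against 6 and 6. Over the 30 tested members, 15 values are smaller than their standard error, 0 members were called on either side, and members share clusters and near copies. No test was made of the difference.

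Proteins that act on or with ADAMs were read from lists given by name, which were chosen with earlier results of these data known. Over all tested genes, 0.749% were called and 49.6% had values above 0, with a median of -0.002. Of 12 tested regulators of ADAM10 and ADAM17, 0 were called, and 8 had values above 0 and 4 below (median 0.066). Pcsk5, a proprotein convertase of the kind that cuts off ADAM prodomains, had the smallest p, with 6.499 and 5.693 CPM in MUT and 4.924 and 4.242 CPM in WT (0.38, SE 0.128, limma adjusted p = 0.174). Rhbdf2 (iRhom2, which brings ADAM17 to the cell surface) was at 6.253 and 6.499 against 5.280 and 5.388 CPM (0.24, limma adjusted p = 0.360). Tspan14, a tetraspanin partner of ADAM10, was at 7.155 and 7.794 against 6.571 and 6.052 CPM (0.23, limma adjusted p = 0.372). In these 3 genes both MUT libraries were above both WT libraries. They were picked by smallest p, which favors genes without overlap, so this adds no evidence. Of the 12 regulators, 7 had both MUT libraries above and 1 had both below. Over all tested genes these shares were 23.0% and 22.6%. Of the 5 inhibitors, 0 were called, and the median was 0.118. Timp3, the inhibitor of ADAM17 and ADAM10, was at 45.12 and 42.34 CPM in MUT, against 36.04 and 43.11 CPM in WT, with overlapping groups (0.15, limma adjusted p = 0.457). Timp2 was at 162.9 and 176.1 against 153.5 and 158.6 CPM (0.12, limma adjusted p = 0.426), and Timp1 at 1.784 and 2.639 against 2.077 and 1.709 CPM, with overlapping groups (0.17, limma adjusted p = 0.704).

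Of 18 genes for the maturation and surface complex of sperm ADAMs, such as the chaperones Clgn, Calr3 and Pdilt, 0 were called, with 7 values above 0, 11 below and a median of -0.034. Tex101, a germ cell glycoprotein without which ADAM3 is lost from sperm, was at 207.8 and 209.6 CPM in MUT, against 188.0 and 175.5 CPM in WT (0.20, SE 0.0641, limma adjusted p = 0.153). Ace, whose testis form acts on the ADAM3 distribution on sperm, was at 683.9 and 691.9 CPM in MUT, against 740.0 and 808.9 CPM in WT (-0.17, SE 0.0607, limma adjusted p = 0.196). Pcsk4, the convertase of germ cells, was at 258.5 and 279.1 against 301.9 and 286.2 CPM (-0.13, limma adjusted p = 0.356). None of the 3 overlapped between the genotypes, with Tex101 higher in MUT and the other 2 lower. They were picked by smallest p, which favors genes without overlap, so this adds no evidence. In the whole list, 4 genes had both MUT libraries above and 6 had both below. Over all tested genes, 45.6% did not overlap.

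Among 21 tested ligands and receptors that ADAMs shed, 2 were called higher in MUT and 0 lower, where 0.482% and 0.267% of all tested genes were called. The list had 17 values above 0, 4 below and a median of 0.1, beside 49.6% above 0 and a median of -0.002 over all tested genes. Earlier results of these data were known when the list was chosen, so these counts cannot show an excess over all tested genes. Tgfa, a ligand of the epidermal growth factor receptor that ADAM17 releases, was at 5.494 and 6.279 CPM in MUT, against 3.575 and 4.021 CPM in WT. Both MUT libraries were well above both WT libraries, by 0.57 on the log2 scale (SE 0.130, adjusted p = 0.0451 in limma, 0.0477 in edgeR and 0.0851 in DESeq2). The limma call was lost without MUT 2 (adjusted p = 0.134), without WT 1 (0.116) and without WT 2 (0.0589). It was also lost without the filter on low values (0.259), with quantile normalization (0.0774), without the variance trend (0.176) and with the GC content and length correction (0.0749, or 0.12 with the replicate block as well). Counting DESeq2, it was lost in 9 of 20 alternatives. Kit, a receptor of spermatogonia that ADAM17 can shed, was at 20.67 and 23.09 CPM in MUT, against 14.60 and 16.97 CPM in WT (0.46, SE 0.0987, limma adjusted p = 0.0329). Its call was lost in 7 of 20 alternatives: without MUT 2 (limma adjusted p = 0.106), without WT 1 (0.101), without the filter (0.223), with quantile normalization (0.0778), without the variance trend (0.202) and with the GC content and length correction (0.0677, or 0.0877 with the replicate block as well). Kit is itself on the list of spermatogonia markers. That list summed to 92.2 and 90.72 CPM in MUT, against 80.97 and 91.5 CPM in WT, with 4 values above 0 and 2 below. Kit RNA is also made by Leydig cells, whose marker sum was higher in MUT. The part of either cell type was not tested. Cdh2 (N-cadherin, cut by ADAM10) was at 65.59 and 65.70 against 51.74 and 58.79 CPM (0.25, limma adjusted p = 0.139), and Notch3 at 2.399 and 2.785 against 3.767 and 3.679 CPM (-0.45, limma adjusted p = 0.140). Shedding acts on protein, which was not measured here.

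Lgi2 and Lgi4, the tested ligands of the neural ADAMs, were not called. Lgi2 was at 6.930 and 8.625 CPM in MUT, against 8.321 and 8.746 CPM in WT (-0.13, limma adjusted p = 0.645), and Lgi4 at 4.203 and 4.202 against 3.856 and 3.478 CPM (0.18, limma adjusted p = 0.566). Of 8 tested proteases outside the rule, from the Adamts and matrix metalloprotease genes, 0 were called, with a median of -0.060. Mmp2 had the smallest p of these, at 2.747 and 2.639 CPM in MUT, against 5.280 and 3.277 CPM in WT (-0.55, SE 0.169, limma adjusted p = 0.134). Its WT libraries differed from each other more than MUT 1 differed from WT 2. Adamts5 followed at 6.520 and 6.792 against 6.007 and 5.690 CPM (0.17, limma adjusted p = 0.518), and Adamts2 at 9.369 and 9.993 against 10.87 and 10.74 CPM (-0.15, limma adjusted p = 0.523).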

How the data were processed

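RNA of testis was sequenced from stranded mRNA libraries, per the labels' protocols. The authors deposited 1 table of CPM per gene symbol and library; TopHat2 2.0.10, HTSeq 0.6.0, edgeR 3.8.6 and mm10 are named in the submitters' processing notes, while their roles and the strand setting are not given in the sources used here. All CPM values (100%) lay within 0.001 of whole reads, giving totals of 48409785 (MUT 1), 40426400 (MUT 2), 68192776 (WT 1) and 50162558 (WT 2) reads. Replicate libraries differed by more than sampling noise.

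Genes with at least 1 CPM in at least 2 libraries (15364) were tested as log2(CPM + 0.5), without further scaling, with limma 3.58.1 (mean-variance trend, two-sided) in R 4.3.3. P-values were adjusted by Benjamini-Hochberg over all tested genes. Fold changes are on that scale and understate the change of low genes. The recovered counts were tested with edgeR 4.0.16 (quasi-likelihood; 75 higher and 41 lower genes called) and DESeq2 1.42.0 (94 and 72). No exact permutation test was run, since the smallest two-sided p it allows with 2 libraries a side is 0.333.

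The members, role lists and accessory lists were chosen with earlier results of these data known. Full values were given for the 10 members with the smallest p, the 4 with the highest CPM per kilobase, Adam10, Adam17, Adam7, the near copies, and the called genes and 3 smallest p values of each accessory list. Library values of other members were added where they belong to the family. Cd74 was named after its values were seen. Exon lengths and coding sequences came from GENCODE vM21 on GRCm38, which matched all 33 members and 95.7% of symbols, and start regions from RefSeq. Alternatives changed the pseudocount, filter, scaling, variance trend, GC content and length correction, replicate block and library left out. A crossed replicate block was added after seeing the data. The steps were tested on simulated data.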

Additional observations from a re-analysis of the deposited data

How the results depend on the processing

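Of the 30 tested members, 17 kept their direction under every alternative they were tested in and 13 changed it in at least 1, and 3 were called in any. There were 20 alternatives, or 19 for Adam12, Adam8 and Adam19, which the filter at 5 CPM left out. The count of called members stayed 0 in both directions except when a library was left out (0 to 1 higher, 0 to 2 lower). The family median then ran from -0.058 without WT 1 to 0.044 without WT 2, wider than its spread of 0.038. Called accessory genes, 2 higher and 0 lower, became 0 higher without the filter on low values, with quantile normalization, without the variance trend and with the GC content and length correction, and 1 with DESeq2; over libraries left out they ran from 0 to 3 higher and 0 to 1 lower. Genes called over all tested genes (74 higher, 41 lower) were 7 and 4 without the filter, 35 and 18 with quantile normalization, 127 and 35 with plain library totals (78.4% higher, against 64.3%), 113 and 37 (75.3% higher) when scaled without the 100 most abundant genes, 5 and 2 without the variance trend, and 94 and 72 with DESeq2. Over libraries left out they ran from 71 to 115 higher and from 43 to 165 lower, with 115 and 165 without WT 1 and 105 and 89 without MUT 2. Directions turned with quantile normalization for Adam3 and Adam2 (0.019 each), Adam6a (0.004), Adam34 (-0.017) and Adam21 (-0.008), with plain totals for Adam2 (0.003) and Adam6a (0.021), without the 100 most abundant genes for Adam6a (0.015) and with the GC content and length correction for Adam21 (-0.014). Over libraries left out, log2 fold changes that turned ran from -0.527 to 0.013 for Adam22, -0.134 to 0.001 for Adam29, -0.174 to 0.064 for Adam6b, -0.108 to 0.018 for Adam3, -0.012 to 0.097 for Adam39, -0.24 to 0.061 for Adam19, -0.053 to 0.001 for Adam2, -0.074 to 0.136 for Adam1b, -0.1 to 0.172 for Adam20, -0.086 to 0.138 for Adam4, -0.115 to 0.1 for Adam6a, -0.099 to 0.124 for Adam34 and -0.12 to 0.127 for Adam21. A genotype with 1 library left is assumed to vary like the other. The cause of these changes was not tested. Same-numbered libraries deviated with a correlation of -0.134, so the numbers give no pairing. With the replicate block, 57 higher and 31 lower genes were called, with the block and the GC content and length correction together 24 and 14 (0 accessory genes, Adam21 -0.014), and with a crossed replicate block 131 and 104. With 2 libraries per genotype and a median standard error of 0.0948, differences of the size seen in most members were not detectable.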
